A study of Saccharomyces cerevisiae with 8 samples.

Results

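Isolated origin loci were defined by the positions of ChIP-Exo binding events in budding yeast. The events of 6 lists were pooled, and events up to 250 bp apart were chained into 1 locus, which gave 355 loci. The 351 loci with at least 1 event in both Mcm4 lists were kept. A kept locus was called isolated when it had a kept neighbour on both sides of the same chromosome, each more than 40 kb away between locus midpoints. This held for 35 of the 351 kept loci, with 941 of the 9293 events in all. The other 316 kept loci, of which 284 had a neighbour on both sides, are called the remaining loci.

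The cells were Saccharomyces cerevisiae of the W303 background, in which Mcm4 (strain YC779) or Orc2 (strain YC795) carried a FLAG tag at its own chromosomal locus. The analysed conditions, with 2 replicates each, were Mcm4 in cells held in G1-phase by the pheromone alpha-factor, Orc2 in cells held in G1-phase the same way, and Orc2 in cells held in G2-phase by the microtubule drug nocodazole. The study's methods describe the replicates as biological. The p-values below measure the spread between lists, and those of the sign-flip test pool the lists of all conditions. A further 2 libraries of Orc2 from cells 24 min after release from G1-phase were not analysed here. No untagged control list was used here.

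Replication origins are the sites at which both strands of a chromosome begin to be copied. ORC, the origin recognition complex that contains Orc2, binds the A-element, a T-rich sequence within each yeast origin (ARS), and in G1-phase loads the MCM2-7 helicase, which contains Mcm4, as a double hexamer. A fork that leaves an origin in a long stretch without others has far to travel before it meets an oncoming one, which is why the spacing of licensed origins has long been studied.

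The lists held 1982 and 1723 MCM2-7 events, 1170 and 1379 ORC events in G1-phase, and 2178 and 861 ORC events in G2-phase, in replicates 1 and 2. Each event is a single base with a score from 66 to a cap of 1000, whose definition is not given in the sources used here. Read counts are not part of the lists, and the depth behind each event is unknown. The events gathered in narrow loci. Kept loci were 370 bp wide at the median, and only 4 of the 351 were wider than 450 bp. From the nearest listed A-element, 372 events lay 200 to 250 bp away, only 30 lay 250 to 300 bp away, and 514 lay over 1000 bp away. The lists thus appear to be limited to windows around origins, although no source used here states such a limit. Locus width and isolation describe these lists, and whether MCM2-7 or ORC occupied other sites in the long stretches was not tested.

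The isolated loci lay on 12 of the 16 chromosomes. Chromosome VII had 6 of them, chromosomes XI and XVI had 5 each, and chromosomes I, III, VI and IX had none. The distance to the nearer neighbour had a median of 47.1 kb (lowest 40.1 kb, highest 90.1 kb) at isolated loci and of 19.7 kb at the remaining loci with both neighbours, a gap that the rule itself set. ARS1217 on chromosome XII (512875 to 513241 on the R64 reference) was the most isolated, with its neighbours 100.2 and 90.1 kb away. The rDNA repeats, which the authors left out of event calling, lie in its left flank. ARS1018 on chromosome X (540405 to 540801) followed with 81.0 and 72.5 kb, and ARS1529 on chromosome XV (981295 to 981742) with 73.2 and 72.2 kb. ARS211 on chromosome II (326055 to 326413) had its neighbours 71.1 and 63.1 kb away. ARS1312 on chromosome XIII (370815 to 371227) lay 84.2 and 62.1 kb from its neighbours. ARS729 on chromosome VII (777940 to 778225) lay 62.8 and 56.6 kb from them.

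**Figure D1:**
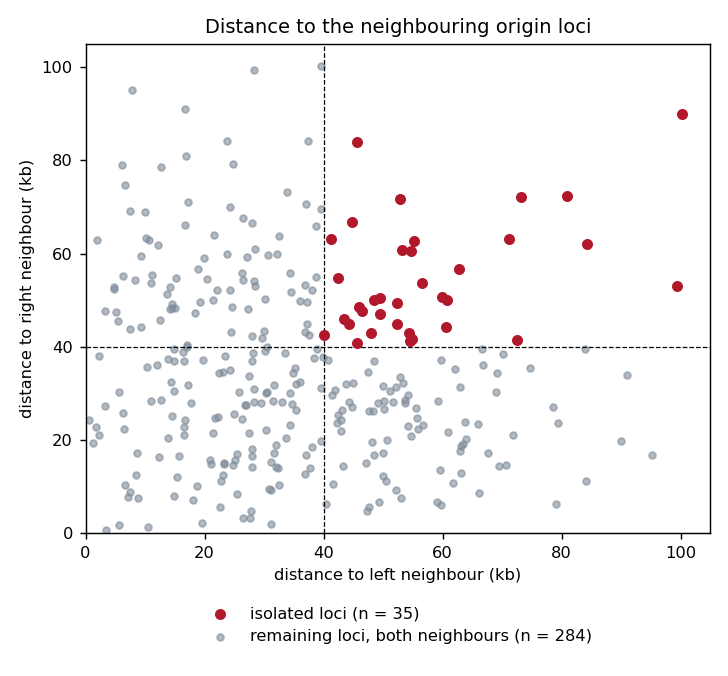
Distance in kb to the left and right neighbouring locus for the 35 isolated loci (red) and the 284 remaining loci with both neighbours (grey). Dashed lines mark 40 kb, and the isolated loci fill the upper right quadrant by construction, with ARS1217 at its far corner.

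The limit of 40 kb cut through a continuous range of spacings. Just inside it were ARS1103, whose nearer neighbour was 40.1 kb away, and ARS707 with 40.7 kb. Just outside it, both with 39.6 kb, were a locus on chromosome XIII (688789 to 689079) and ARS1238. Mean list place over the 6 lists, a percentile explained below, was 78.7 for ARS1103 and 41.7 for ARS707, against 26.4 for the locus on chromosome XIII and 46.7 for ARS1238.

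From neighbour to neighbour the isolated loci spanned 24 separate stretches of 86.3 to 286.9 kb, together 3326 kb or 27.6% of the nuclear genome. Of the 35 loci, 17 had a neighbour that was isolated too. The longest stretch, on chromosome XI between 15811 and 302676, held 5 in a row: ARS1103, ARS1125, ARS1106, ARS1127 and a locus without an annotated ARS (257746 to 258065). The stretch on chromosome VII between 660052 and 888417 held 3, namely ARS728, ARS729 and ARS731. The stretches contained 1663 protein-coding genes. They were not free of annotated origins, as they contained 51 annotated ARS, of which 16 had no event within 500 bp. In the whole genome 64 of 352 annotated ARS had none. The rule allows no other kept locus between an isolated locus and its neighbours, so it set this contrast in part. None of the 4 loci that failed the Mcm4 criterion lay in these stretches. Among the 16 were ARS409.5, ARS411, ARS807, ARS1104 and ARS1611, named here after the counts were seen, and ARS1200-1 and ARS1200-2 in the rDNA.

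The sequences of the 6 most isolated loci are shown because they carry the element on which ORC is known to land. Each runs 5′ to 3′ on the strand of its A-element as listed by the study, from the RefSeq copy of the R64 genome (strain S288C, so that differences of W303 are not covered). Capitals mark the 11 bp of the A-element around the listed central base.
ARS1217 (chrXII:513018-513097, minus strand): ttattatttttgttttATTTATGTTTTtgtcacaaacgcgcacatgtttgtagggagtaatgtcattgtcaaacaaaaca
ARS1018 (chrX:540595-540674, plus strand): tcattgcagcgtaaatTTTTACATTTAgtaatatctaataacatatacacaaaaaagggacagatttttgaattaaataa
ARS1529 (chrXV:981498-981577, plus strand): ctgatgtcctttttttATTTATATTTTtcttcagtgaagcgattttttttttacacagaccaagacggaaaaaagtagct
ARS211 (chrII:326180-326259, plus strand): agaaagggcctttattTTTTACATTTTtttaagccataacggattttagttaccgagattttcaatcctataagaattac
ARS1312 (chrXIII:371007-371086, plus strand): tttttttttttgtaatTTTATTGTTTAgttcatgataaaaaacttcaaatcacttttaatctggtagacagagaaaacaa
ARS729 (chrVII:778000-778079, plus strand): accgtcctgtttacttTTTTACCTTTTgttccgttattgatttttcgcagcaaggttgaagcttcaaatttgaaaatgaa
In 4 of these 6, ARS1217, ARS1018, ARS1529 and ARS211, every base of the A-element matched the consensus. ARS729 matched it at 10 of 11 positions and ARS1312 at 9 of 11, and ARS1312 carries T rather than A at the listed central position.

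A listed A-element lay within 250 bp of 34 of the 35 isolated loci and of 289 of the 316 remaining loci. Matches to the 11 bp consensus averaged 10 ± 0.985 (SD, n = 34) at isolated loci and 9.46 ± 1.84 (SD, n = 286 with a listed strand) at remaining loci. The share with a full match was nearly equal, 11 of 34 isolated loci (32.4%) and 92 of 286 remaining loci (32.2%). The groups parted at lower counts, as 27 of 34 isolated loci (79.4%) but 183 of 286 remaining loci (63.99%) matched at 10 or 11 positions. With the frame free to shift by up to 2 bases, 29 of 34 and 198 of 286 did. Fewer than 9 positions matched at 3 of 34 isolated loci and at 53 of 286 remaining loci. These counts were not tested, because the loci are not replicates. Of the 34 listed positions at isolated loci, 6 did not hold an adenine, and at 3 of them a frame 1 base upstream matched better. At remaining loci 36 of 286 did not, and at 21 of these a frame shifted by up to 2 bases matched better. A low count can thus come from a listed position off the motif as well as from a weaker element.

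A search for the same consensus on both strands of 401 bp centred on each locus found a full match at 13 of 35 isolated loci (37.1%) and 127 of 316 remaining loci (40.2%). All windows of this length tiled over the genome gave 765 of 30094 (2.54%). AT content of the windows had a median of 68.1% at isolated loci and 68.3% at remaining loci, against 61.9% over the genome. The B2-element, which the paper proposes as a second ORC-binding site, resembles an inverted A-element. Counted here was the first correctly oriented B2-element listed by the study, within 150 bp of the A-element on either side. It was found for 20 of 34 isolated loci (58.8%) and 160 of 289 remaining loci (55.4%). B2-elements in the other orientation were not counted. These shares and the AT content were close between the groups.

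All 35 isolated loci had their midpoint between protein-coding genes, and whether their edges reached into a gene was not tested. Convergent genes flanked 12 of them, divergent genes 6 and genes in tandem 17. By midpoint, 110 of the remaining loci lay between convergent genes, 47 between divergent genes and 138 between tandem genes. A further 16 had their midpoint within a gene and 5 beyond the last gene of a chromosome. The isolated locus nearest to a chromosome end was 55.9 kb from it, while 73 of 316 remaining loci were within 50 kb of one. The rule, which asks for a neighbour over 40 kb away on both sides, leaves out every locus within 40 kb of an end. The nearest centromere was 44.3 kb or more away, with a median of 226.5 kb at isolated loci and 221.7 kb at remaining loci. An annotated ARS overlapped 30 of the 35 isolated loci (85.7%), and 255 of the 316 remaining loci (80.7%) overlapped one or had one within 500 bp. The 5 isolated loci without one were on chromosomes X, XI, XV (2 loci) and XVI. The study lists an A-element at 4 of these, and the fifth, on chromosome XVI between PPQ1 and CBC2 (210880 to 211311), has none.

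To compare loci between lists, whose scores are not on a common scale, each locus took the place of the first of its events in a list, as a percentile among kept loci with an event in that list (100 is first-listed). The lists run closely, though not strictly, from high to low score. Isolated loci were placed above remaining loci at the median in all 6 lists. For MCM2-7 the medians were 61.8 at isolated and 49.1 at remaining loci in replicate 1, and 55.6 and 49.4 in replicate 2. For ORC in G1-phase they were 56.9 at isolated and 49.4 at remaining loci, then 56.5 and 48.4. For ORC in G2-phase they were 57.6 at isolated and 48.9 at remaining loci, then 60 and 49.1.

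The difference, isolated minus remaining, averaged 8.99 ± 2.40 points (SD, n = 6 lists) and was positive in 6 of 6 lists. The two-sided exact sign-flip permutation test over lists gave p = 0.03125, the smallest it can give with 6 lists, and 0.0625 after Benjamini-Hochberg adjustment over the 2 list tests made, which misses 0.05. The 6 lists measured the same 35 loci, so the test speaks of lists and not of other loci. It treats the lists as independent, which they are not, as their orders of loci were correlated (given below). With only events at or above their list's median score the mean difference was 2.21 points, positive in 4 of 6 lists. With score percentiles, ties averaged, in place of list places, the medians of both groups were tied at the score cap in 4 lists (difference 0), and the other 2 lists, ORC in G2-phase, gave 8.74 and 10.8 points. The top score of a locus was at the cap at 35 and 34 of the 35 isolated loci for MCM2-7, against 94.0% and 89.6% of remaining loci, and at 24 and 25 of 35 for ORC in G1-phase, against 60.6% and 53.2% of remaining loci. Means of the score percentiles, chosen after seeing these ties, differed by 5.34 points, positive in 6 of 6 lists.

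**Figure D2:**
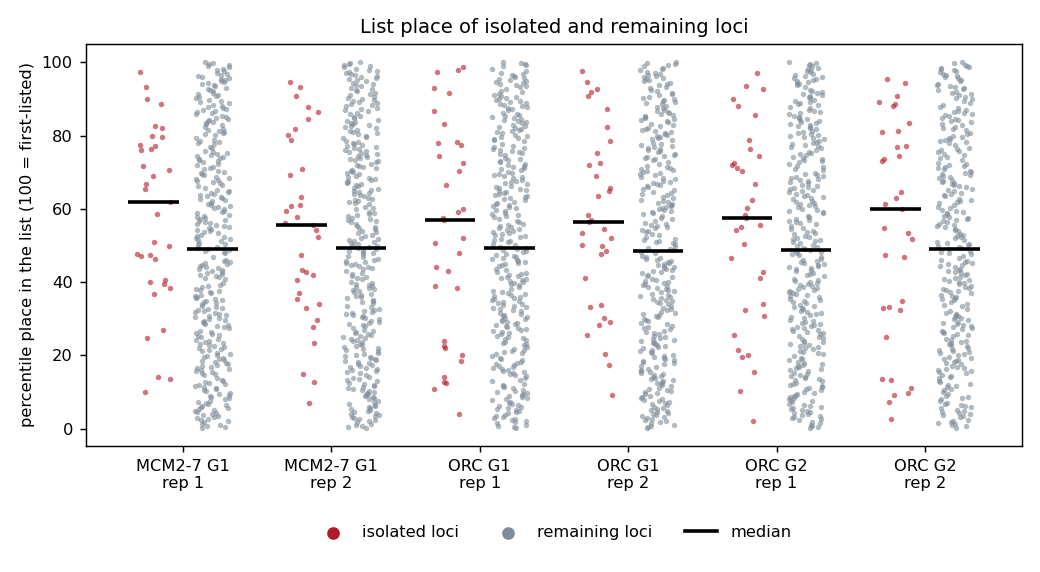
Percentile place of every kept locus in each of the 6 lists, isolated loci in red left of the remaining loci in grey, with black bars at the medians. Isolated loci ranged over nearly the whole list, and their medians lay 6.13 to 12.7 points above those of the remaining loci.

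Isolated loci were spread over the whole order rather than gathered at its top. In the 6 lists, 20 to 22 of the 35 were placed above the 50th percentile, 3 to 5 above the 90th and 3 to 10 below the 25th. The 3 loci that follow stood highest by their mean over the lists. ARS1420 (chromosome XIV, 499003 to 499145), between the gene of the forkhead transcription factor Fkh2 and YNL067W-B, had percentiles of 88.6 and 80.1 for MCM2-7, 97.4 and 97.7 for ORC in G1-phase, and 92.8 and 88.0 for ORC in G2-phase. ARS409 (chromosome IV, 212355 to 212797) lies between SCM3, which encodes the chaperone of the centromeric histone, and the glucose sensor gene RGT2. Its percentiles were 70.7 and 70.9 for MCM2-7, 98.0 and 92.8 for ORC in G1-phase, and 93.4 and 94.5 for ORC in G2-phase. ARS520 (chromosome V, 498887 to 498975) had 76.4 and 40.5 for MCM2-7, 98.6 and 94.5 for ORC in G1-phase, and 97.1 and 95.4 for ORC in G2-phase. At ARS409 and ARS520 every ORC percentile was above both MCM2-7 percentiles.

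The 3 loci that follow stood lowest. ARS1305 (chromosome XIII, 94245 to 94584), between UFO1 and AIM33, had percentiles of 13.7 and 14.8 for MCM2-7, 4 and 17.3 for ORC in G1-phase, and 15.5 and 2.77 for ORC in G2-phase. The locus on chromosome XVI with no listed A-element had 14.2 and 33.9 for MCM2-7, 14 and 20.5 for ORC in G1-phase, and 2.01 and 9.85 for ORC in G2-phase. The locus listed as ARS1510.5 (chromosome XV, 227590 to 227987), between THI20, a gene of thiamine metabolism, and PSH1, had 9.97 and 7.12 for MCM2-7, 38.3 and 25.6 for ORC in G1-phase, and 32.4 and 11.1 for ORC in G2-phase. There every ORC percentile was above both MCM2-7 percentiles. The sequences of the 3 highest loci and of the 2 lowest with a listed A-element are shown together, as the ends of the order.
ARS1420 (chrXIV:499027-499106, plus strand): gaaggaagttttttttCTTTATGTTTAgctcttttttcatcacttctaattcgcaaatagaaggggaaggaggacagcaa
ARS409 (chrIV:212527-212606, minus strand): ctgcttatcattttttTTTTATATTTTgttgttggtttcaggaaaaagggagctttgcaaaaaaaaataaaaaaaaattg
ARS520 (chrV:498876-498955, plus strand): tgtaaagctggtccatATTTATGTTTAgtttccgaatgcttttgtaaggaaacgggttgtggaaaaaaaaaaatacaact
ARS1305 (chrXIII:94325-94404, minus strand): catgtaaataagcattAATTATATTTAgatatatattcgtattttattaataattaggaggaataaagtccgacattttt
Locus listed as ARS1510.5 (chrXV:227532-227611, plus strand): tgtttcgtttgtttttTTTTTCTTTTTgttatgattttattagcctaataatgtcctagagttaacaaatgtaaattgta
The A-elements of ARS1420, ARS409 and ARS520 matched the consensus at 10, 11 and 11 of 11 positions. That of ARS1305 matched at 10 positions, so that an element of this quality was found at both ends of the order. The locus listed as ARS1510.5 matched at 9 positions, with T at the listed central base.

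The most isolated loci did not share a place in the lists. ARS1217 had percentiles of 68.9 and 90.9 for MCM2-7, 59.1 and 75.2 for ORC in G1-phase, and 89.97 and 76.9 for ORC in G2-phase. ARS1018, next to HIT1, had 93.2 and 87.7 for MCM2-7, 78.0 and 41.2 for ORC in G1-phase, and 78.8 and 61.2 for ORC in G2-phase. ARS1217 was above the 50th percentile in 6 of 6 lists and ARS1018 in 5 of 6. ARS729, beside the thiamine biosynthesis gene THI4, was above the 50th percentile in 5 of 6 lists too, with 82.1 and 59.5 for MCM2-7, 48.0 and 64.8 for ORC in G1-phase, and 70.2 and 81.2 for ORC in G2-phase. Lower places were held by the other 3. ARS1312 had 38.5 and 37.0 for MCM2-7, 50.6 and 54.5 for ORC in G1-phase, and 54.2 and 34.8 for ORC in G2-phase. ARS1529, between the gene of the glycolytic regulator Tye7 and REV1, which acts in translesion synthesis, had 61.8 and 35.3 for MCM2-7, 20 and 9.22 for ORC in G1-phase, and 20.1 and 32.3 for ORC in G2-phase. ARS211, with a full A-element match, had 36.8 and 54.1 for MCM2-7, 22.6 and 29.1 for ORC in G1-phase, and 10.3 and 7.38 for ORC in G2-phase. At ARS1529 and ARS211 all 4 ORC percentiles were under both MCM2-7 percentiles.

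The order of loci was more alike between lists of 1 protein than between proteins, at isolated and remaining loci alike. Across the 35 loci, Spearman's rho between replicates was 0.72 for MCM2-7, 0.77 for ORC in G1-phase and 0.87 for ORC in G2-phase. Between an MCM2-7 and an ORC list it was 0.38 to 0.53. At the remaining loci, rho between replicates was 0.85 for MCM2-7, 0.75 for ORC in G1-phase and 0.77 for ORC in G2-phase. Between an MCM2-7 and an ORC list it was 0.33 to 0.42 there. These describe loci called from the same genome and are no test. The widest gap between MCM2-7 and ORC in G1-phase was at ARS452 on chromosome IV, singled out after its values were seen, with percentiles of 90.03 and 63.2 for MCM2-7, 10.9 and 28.2 for ORC in G1-phase, and 21.5 and 13.2 for ORC in G2-phase.

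Every isolated locus had an event in all 6 lists, while 287 of the 316 remaining loci (90.8%) did. Presence in the Mcm4 lists was part of the rule. In the shortest list, ORC in G2-phase replicate 2, 26 remaining loci had no event. Events per locus barely differed. For MCM2-7 there were 5.34 ± 1.95 and 4.97 ± 1.67 events (SD, n = 35) at isolated loci, against 5.68 ± 1.94 and 4.90 ± 1.93 (SD, n = 316) at remaining loci. For ORC in G1-phase there were 3.37 ± 1.09 and 4.31 ± 2.10 at isolated loci, against 3.32 ± 1.47 and 3.87 ± 2.04 at remaining loci. For ORC in G2-phase there were 6.4 ± 2.83 and 2.49 ± 1.52 at isolated loci, against 6.16 ± 2.63 and 2.45 ± 1.57 at remaining loci. The difference averaged 0.085 ± 0.26 events (SD, n = 6 lists), was positive in 5 of 6 lists and did not pass the exact sign-flip permutation test (p = 0.4375).

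How closely the replicates placed their first-listed event was taken as a measure of positional precision. Of the MCM2-7 events, 59.1% and 51.9% in replicates 1 and 2 were at the score cap. Among these, list order alone and not the score set which came first. At isolated loci the median distance between replicates was 16 bp for MCM2-7 (quartiles 5.5 and 39), 16 bp for ORC in G1-phase (7.5 and 45) and 27 bp for ORC in G2-phase (11 and 67). At remaining loci it was 21.5 bp for MCM2-7 (quartiles 10 and 50), 36 bp for ORC in G1-phase (13 and 77.5) and 40 bp for ORC in G2-phase (13 and 81). The quartile ranges of the groups overlapped widely, and the differences were not tested. With the nearest pair of events in place of the first-listed ones, the medians were 2, 3 and 5 bp for the same 3 conditions at isolated loci and 3, 5 and 5 bp at remaining loci. The order of the groups for MCM2-7 turned round with neighbours over 30 kb (22 bp at isolated and 20 bp at remaining loci), with neighbours over 50 kb (22 and 20.5 bp) and with the upper scoring events alone (20.5 and 20 bp).

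**Figure D3:**
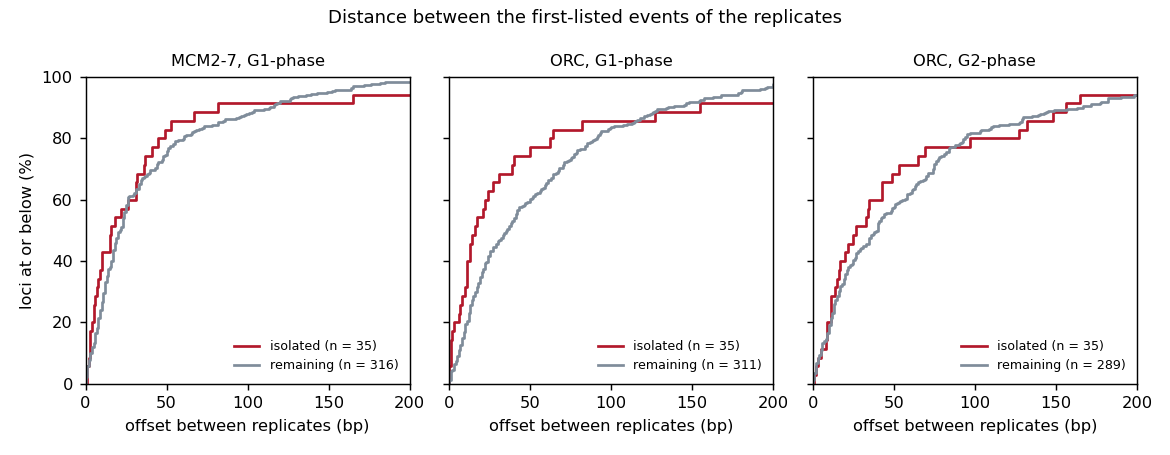
Cumulative share of loci (%) by the distance in bp between the first-listed events of the replicates, isolated loci in red and remaining loci in grey, cut at 200 bp. The ORC curves in G1-phase lie farthest apart, with medians of 16 bp at isolated and 36 bp at remaining loci, and the curves meet at larger distances.

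Distances over 100 bp occurred for MCM2-7 at 3 of 35 isolated loci (8.57%) and 38 of 316 remaining loci (12.03%), and for ORC in G1-phase at 5 of 35 (14.3%) and 51 of 311 (16.4%). For ORC in G2-phase they occurred at 7 of 35 isolated loci (20%) and 53 of 289 remaining loci (18.3%), so that the higher share was at isolated loci there. ARS1305, the lowest-placed locus, had them in all conditions, with 206 bp for MCM2-7, 216 bp for ORC in G1-phase and 127 bp for ORC in G2-phase. At ARS1217, the most isolated one, they were 18, 13 and 9 bp.

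The distance from MCM2-7 to ORC was taken to the nearest ORC event of a locus, so more ORC events tend to make it shorter. The first-listed MCM2-7 event and the nearest ORC event in G1-phase were 16.3 bp apart at the median of isolated loci (quartiles 7.75 and 22.3, mean of the 4 list pairs per locus) and 22.8 bp apart at remaining loci (12.5 and 36.5). For ORC in G2-phase the medians were 12 bp at isolated loci (6.5 and 22.5) and 18.5 bp at remaining loci (10 and 40.5). The gap between the groups narrowed with the nearest pair of events, to 4.25 bp at isolated and 5.5 bp at remaining loci in G1-phase and 3.75 and 4.75 bp in G2-phase. It narrowed too in G1-phase when an event in all 6 lists was required (19 and 19.75 bp). The number of ORC events per locus differed between the lists, as given above, and its part in these distances was not tested.

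Along the strand of the A-element, the first-listed MCM2-7 event lay downstream of the listed position, at a median of 32.5 and 41.5 bp in the 2 replicates at the 34 isolated loci, against 27 and 29.5 bp at the remaining loci. It was on the downstream side at 29 and 27 of the 34 isolated loci (85.3% and 79.4%), against 193 and 197 of 286 remaining loci (67.5% and 68.9%), which was not tested. For ORC in G1-phase the medians were 26 and 19 bp at isolated loci, against 23 and 14 bp at remaining loci. For ORC in G2-phase they were 13.5 and 15 bp at isolated loci, against 21 bp in both replicates at remaining loci. The downstream shares for ORC in G1-phase were 79.4% and 64.7% at isolated loci, against 73.0% and 67.7% at remaining loci. In G2-phase they were 64.7% and 58.8% at isolated loci, against 72.6% and 70.5% at remaining loci. At isolated and remaining loci alike, both medians for MCM2-7 were above all 4 for ORC. With 2 lists per condition this order was not tested.

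**Figure D4:**
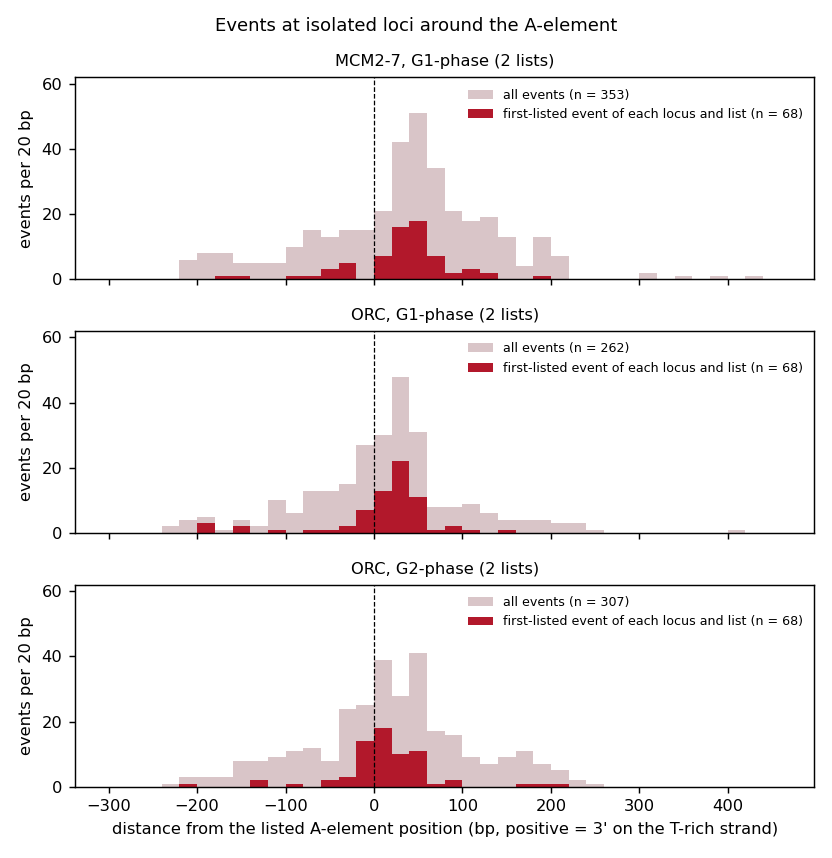
Number of events per 20 bp at the 34 isolated loci with a listed A-element, by distance in bp from its listed position along its T-rich strand, for both lists of each condition (pale, all events; red, the first-listed event of each locus and list). The medians of first-listed events lie downstream of the element, at 32.5 and 41.5 bp for MCM2-7 and at 13.5 and 15 bp for ORC in G2-phase.

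Whether ORC held the same place at isolated loci in G1- and G2-phase was tested with limma on the percentile places of all 322 kept loci with an event in each of the 4 ORC lists. No locus passed a Benjamini-Hochberg adjusted p of 0.05, so 0 of the 35 isolated loci were called against 0% of all loci tested, and the smallest adjusted p was 0.272. At an unadjusted p under 0.05 there were 6 of 35 isolated loci (17.1%), against 44 of all 322 (13.7%), which is close to the background. Standard errors at isolated loci had a median of 10.6 points, and a p that misses the threshold does not show that the phases were alike. The percentiles of the 2 phases did not overlap at 19 of 35 isolated loci (54.3%), against 45.7% of all loci tested. At 10 of the 19 the G1-phase values were the higher ones, and at 9 the G2-phase values. G1 minus G2 was positive at 22 of the 35 isolated loci, with a median of 3.34 points beside 0.11 for all loci tested. Without replicate 2 of G2-phase the median was -0.59 points both at isolated loci and over all loci tested.

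The largest positive difference was at ARS1212 on chromosome XII (289339 to 289537), annotated as a late-firing origin and next to the galactose permease gene GAL2. ORC percentiles there were 66.6 and 91.9 in G1-phase and 30.7 and 33.2 in G2-phase, a difference of 47.3 points (SE 11.7). ARS1607 on chromosome XVI (116403 to 116811), beside the transcription factor gene USV1, had 77.4 and 72.6 in G1-phase and 41.3 and 46.8 in G2-phase, a difference of 31.0 points (SE 9.14). At both, the phases did not overlap, and MCM2-7 percentiles were 66.7 and 78.9 at ARS1212 and 51.0 and 52.4 at ARS1607. The most negative difference was at ARS1103 on chromosome XI (55759 to 56072), between the convergent genes EAP1 and TOR2. TOR2 encodes a kinase of the TOR complexes. ORC percentiles there were 52.0 and 53.3 in G1-phase and 85.7 and 90.8 in G2-phase, a difference of -35.6 points (SE 9.01). ARS731 on chromosome VII (834480 to 834867), between PEX35 and PUS6, had 22.0 and 30.3 in G1-phase and 57.6 and 53.5 in G2-phase, a difference of -29.4 points (SE 9.29). MCM2-7 percentiles were 97.4 and 93.2 at ARS1103, the highest of any isolated locus in replicate 1, and 46.4 and 41.9 at ARS731. The limma adjusted p was 0.272 at each of these 4 loci, and their sequences are shown as the extremes of the phase comparison.
ARS1212 (chrXII:289355-289434, minus strand): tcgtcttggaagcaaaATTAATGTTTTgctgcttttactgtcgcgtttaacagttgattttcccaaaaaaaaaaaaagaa
ARS1607 (chrXVI:116580-116659, plus strand): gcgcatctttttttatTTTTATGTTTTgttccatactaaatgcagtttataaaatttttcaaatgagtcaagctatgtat
ARS1103 (chrXI:55801-55880, minus strand): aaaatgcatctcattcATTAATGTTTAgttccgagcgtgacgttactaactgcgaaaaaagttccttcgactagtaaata
ARS731 (chrVII:834599-834678, minus strand): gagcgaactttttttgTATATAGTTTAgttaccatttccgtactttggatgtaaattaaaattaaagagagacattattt
Their A-elements matched the consensus at 10 positions in ARS1212, 11 in ARS1607, 10 in ARS1103 and 7 in ARS731, which holds T at the listed central base.

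**Figure D5:**
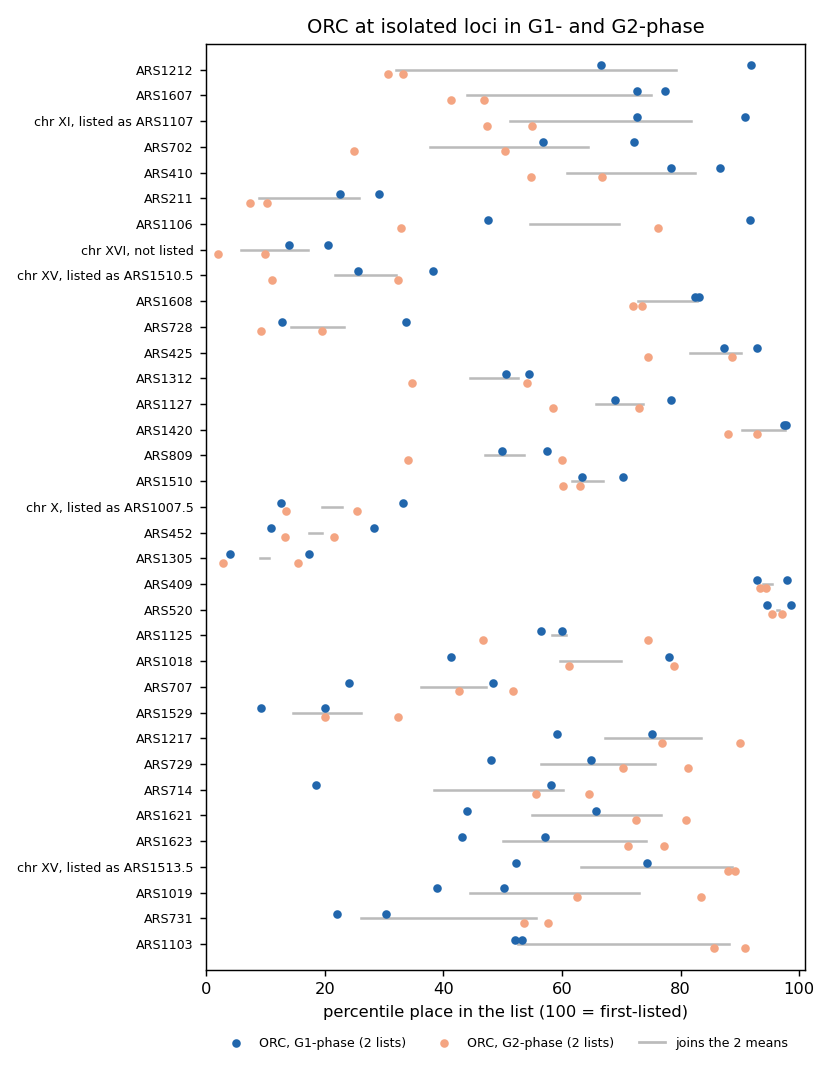
Percentile place of ORC at the 35 isolated loci, ordered by G1 minus G2, with both replicates of G1-phase in blue above those of G2-phase in orange and a grey line joining the means. ARS1212 at the top (difference of 47.3 points) and ARS1103 at the bottom (-35.6 points) lie at the ends, and ARS520 and ARS409 differ by 0.29 and 1.46 points.

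The 5 consecutive isolated loci of chromosome XI, described together after their values were seen, did not move together between the phases. ORC percentiles averaged 52.7 in G1-phase and 88.2 in G2-phase at ARS1103, then 58.2 and 60.6 at ARS1125, 69.6 and 54.6 at ARS1106, and 73.6 and 65.7 at ARS1127. The last, the locus without an annotated ARS between MTC2 and YKL097C, averaged 81.7 in G1-phase and 51.2 in G2-phase. Neighbouring isolated loci within 1 stretch thus had differences of either sign, from -35.6 to 30.5 points, none of which passed the adjusted test.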

How the data were processed

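Lists of ChIP-Exo events were analysed for Mcm4 (G1-phase) and Orc2 (G1- and G2-phase), with 2 replicates each. The authors aligned the reads with Bowtie2 2.3.5 to R64 (sacCer3) and called events with ChExMix on each replicate alone, at 1.5-fold enrichment and a q-value of 0.01, without tRNA genes and the rDNA. The deposited score of each event is a whole number capped at 1000, written by the authors' event caller and not normalized between lists. No source used here states that these lists were restricted to origins.

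Loci were built as described. Annotation and sequence came from the RefSeq copy of R64, and A- and B2-element positions from the study's list. Lists were compared by a two-sided exact sign-flip permutation test, ORC phases with limma 3.58.1 (R 4.3.3) without a block, both at 0.05 after Benjamini-Hochberg adjustment. Whether replicate numbers pair the ORC lists was checked by correlating deviations from the phase means over 322 loci (r = 0.000816), which gave no pairing. Scripts ran in Python 3.11.15 with pandas 2.3.3, NumPy 2.4.6 and SciPy 1.17.1, and were tested on simulated lists. Members and tests were chosen with earlier results of these data known. Named loci are the 6 most isolated, the 3 highest and 3 lowest by mean place, the 2 largest differences of ORC place in each direction, and the 2 nearest to 40 kb on each side. ARS452 and the loci of the stretches on chromosomes VII and XI were named in addition, after their values were seen. Alternatives changed the neighbour distance, the chaining, the lists required, the score cut, the rank and each list in turn.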

Additional observations from a re-analysis of the deposited data

How the results depend on the processing

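With neighbours over 30 kb the rule gave 91 isolated loci, and with neighbours over 50 kb it gave 13. Chaining to 150 or 400 bp, an event in all 6 lists, or the upper scoring events of each list (median score and above) gave 34 to 52. The difference of list place stayed positive under its 19 alternatives, from 2.21 points (upper scoring events, 4 of 6 lists positive) to 10.5 points (remaining loci with both neighbours), and every list was positive in 15 of them. Leaving out each list gave 8.26 to 9.57 points, where 5 lists cannot go below an exact permutation p of 0.0625. With an event in all 6 lists required, it was 4.74 points and positive in 5 of 6 lists. Without ARS1217 beside the rDNA, with means in place of medians, and with means of score percentiles (all added after seeing the data), it was 7.44, 5.87 and 5.34 points. Medians of score percentiles gave 3.25 points, with 4 of 6 lists at 0 through ties. The difference of events per locus stayed positive and did not pass its test in any of its 14 alternatives, with 0.014 to 0.17 events when each list was left out. No locus passed the limma test under its 13 alternatives, where the smallest adjusted p ranged from 0.0752 to 0.429 or, with the replicate block, 0.430, and the block called 0 loci and left 31 at an unadjusted p under 0.05, against 44 without it. Samples share only a number, so the block is given here once. Without ORC in G2-phase replicate 2, the median difference of ORC place was -0.59 points both at isolated loci and over all loci tested.

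Offsets at isolated loci depended on which event was taken. With the nearest pair of events, the offset between replicates was 2 bp for MCM2-7, 3 bp for ORC in G1-phase and 5 bp for ORC in G2-phase, and MCM2-7 to ORC was 4.25 bp in G1-phase and 3.75 bp in G2-phase (at remaining loci 3, 5, 5, 5.5 and 4.75 bp). MCM2-7 to ORC was 23.5 bp at isolated and 25.5 bp at remaining loci in G1-phase with the upper scoring events, and 17.5 and 18.5 bp in G2-phase with neighbours over 30 kb. The lists give no depth, so precision per locus is not known. They appear to be limited to origin windows, so a stretch without events cannot be told apart from one that was left out.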
